A study of Equisetum hyemale and Pteris vittata and Marchantia polymorpha with 22 samples.

Results

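The genes described here are the counterparts of a small set of transcriptional regulators in 5 land plants that were kept at low oxygen. In *A. thaliana* the set holds the class II LATERAL ORGAN BOUNDARIES DOMAIN genes LBD37 (AT5G67420), LBD38 (AT3G49940), LBD39 (AT4G37540), LBD40 (AT1G67100), LBD41 (AT3G02550) and LBD42 (AT1G68510), together with HYPOXIA RESPONSE ATTENUATOR 1, HRA1 (AT3G10040). A feature, meaning a gene or an assembled contig, was taken as a member when the *A. thaliana* best hit listed beside it was 1 of these 7 genes. The rule found 32 members among 180885 features, of which 96395 had any best hit.

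LBD proteins are plant-specific DNA-binding factors that fall into 2 classes by their conserved domain. The class II genes LBD37, LBD38 and LBD39 are induced by nitrate in *A. thaliana*, where their products repress anthocyanin synthesis and many nitrate uptake and assimilation genes. LBD41 and HRA1 are known as genes that *A. thaliana* switches on when oxygen runs low. HRA1 is a trihelix protein that binds the group VII ethylene response factor RAP2.12, an activator of the hypoxia response, and dampens its activity.

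The series holds 22 poly(A)-selected, stranded RNA libraries, all labelled as shoot. The species were the liverwort *Marchantia polymorpha*, the moss *Physcomitrium patens*, the lycophyte *Selaginella moellendorffii*, the horsetail *Equisetum hyemale* and the fern *Pteris vittata*. Plantlets were 13 d old, and every library, controls included, came from plants held for 8 h in the dark. The air group stayed at 21% O2 and the hypoxia group at 1% O2. A replicate pooled 3 thalli, plantlets or shoots, with 2 replicates per condition in 4 species and 3 per condition in *E. hyemale*. No strain, genotype or mutant is named in the labels. *M. polymorpha* and *P. patens* plantlets are gametophytes, so the comparison between species also spans generations of the life cycle. RNA of *E. hyemale* was extracted with another kit than that of the other plants, so kit and species cannot be told apart. Features of *E. hyemale* and *P. vittata* come from de novo assemblies, where 1 gene can be split over several contigs and near-identical contigs share reads.

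Library depth, read from the size of the step that 1 read makes in the low values, was 16.2 to 28.8 M reads, so 1 read was worth 0.0347 to 0.0617 CPM, the unit of all levels here, which scales reads to the size of the library. Chlorophyll-binding protein and Rubisco small subunit hits, the markers fixed for green tissue, were found in every species, with the most abundant one at a mean of 635 CPM in *P. vittata* and 4143 CPM in *M. polymorpha* at the extremes. Of the 22 marker features of *E. hyemale* 1 was called up, beside 0.673% of all features. At the unadjusted p of 0.05 10 were lower and 2 higher (median log2FC -0.28), beside 5.99% and 6.71% of all features. In *P. patens* 12 of 37 were lower and 0 higher (median log2FC -0.29), beside 5.46% and 5.45%. The part of these shifts in the members' values was not tested. Library correspondence was complete except for 1 *S. moellendorffii* air library, whose column carried no replicate number that the labels list. It is called the unnumbered air library. In *E. hyemale* the level columns and the identifier column were deposited in different row orders. Sorting the identifiers with the character _ ahead of digits restored the match, with a correlation across features of 0.9913 to the authors' own mean log2 CPM column, against 0.0076 as deposited. All *E. hyemale* values below rest on that order.

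The 4 best hits found were unevenly spread over the plants. LBD38 was the best hit of 16 features, of which the lycophyte held 2, the horsetail 2 and the fern 12. LBD37 was the best hit of 8, 1 of the liverwort, 4 of the moss, 1 of the lycophyte and 2 of the horsetail. LBD39 was found in *E. hyemale* alone, as 2 contigs. HRA1 was the best hit of 4 contigs in *E. hyemale* and of 2 transcripts in *P. vittata*. No feature of any of the 5 tables had LBD40, LBD41 or LBD42 as its best hit. A best hit names the nearest *A. thaliana* protein and does not establish orthology.

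Members were counted as called when limma gave a false discovery rate (FDR) of 0.01 or less over the whole table of the species and the log2 fold change (log2FC, hypoxia minus air, of log2(CPM + 1)) passed 1 in size. Under that rule 2 of the 32 members were upregulated and 0 were downregulated, and both were the LBD38 contigs of *E. hyemale*. A further count, with no adjustment, is how many members were higher at an unadjusted limma p of 0.05, and this held for 17 of 32. The authors kept only loci with more than 20 reads in at least 1 library, and 2 members passed through their hypoxia libraries alone. That puts their highest library in hypoxia and so favours a higher value there. Without them the count was 16 of 30. In 17 members, or 16 without those passed through hypoxia alone, every hypoxia library lay above every air library and in 2 every hypoxia library lay below. These shares are read below against the share of all features in the same table. RNA came from whole shoots or thalli, so that fewer cells of a type and less RNA per cell cannot be told apart.

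**Figure D1:**
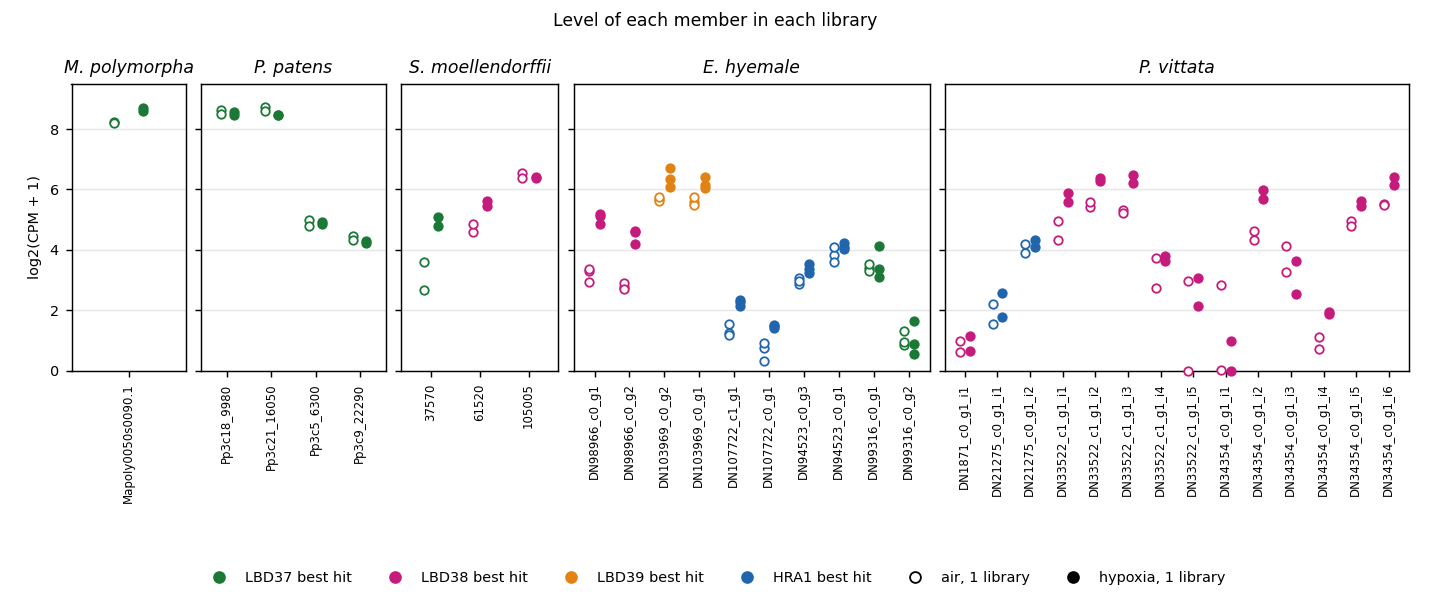
Level of each member in each library, as log2(CPM + 1), with 1 panel per species. Open points are air libraries and filled points hypoxia libraries, coloured by best hit. The filled points of both *E. hyemale* LBD38 contigs (DN98966_c0_g1 and DN98966_c0_g2) lie well above the open ones, while those of the 4 *P. patens* LBD37 genes do not.

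In *E. hyemale* the LBD38 contigs rose together, to 3.79 times their summed air level. Ehym_DN98966_c0_g1 measured 8.83, 6.67 and 9.42 CPM in air and 35.6, 28.0 and 33.8 CPM in hypoxia. The lowest hypoxia library was thus well clear of the highest air library, and the log2FC was 1.85 (SE 0.174, n = 3 per condition, FDR 0.00028 by limma). Ehym_DN98966_c0_g2 measured 5.77, 6.53 and 5.46 CPM in air and 23.3, 17.2 and 23.9 CPM in hypoxia, a log2FC of 1.69 (SE 0.181, FDR 0.00071 by limma). These contigs ranked 224 and 278 among 55254 features by log2FC. They are 2 gene units of 1 Trinity component, a group of contigs that the assembler linked by shared sequence, and their best-hit E-values were nearly equal at 1.48e-50 and 1.41e-50. Their ratio to each other overlapped between conditions (mean log2 0.42 in air and 0.58 in hypoxia, exact permutation p = 0.7, two-sided). Whether they are 1 gene or 2 copies cannot be told apart here. Summed as a single unit they gave 14.6, 13.2 and 14.9 CPM in air and 58.9, 45.2 and 57.7 CPM in hypoxia.

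The LBD39 contigs of *E. hyemale* were higher in hypoxia but stayed outside the threshold. Ehym_DN103969_c0_g2 measured 50.6, 48.7 and 52.9 CPM in air against 102.8, 81.2 and 67.4 CPM in hypoxia, a log2FC of 0.69 (SE 0.156, FDR 0.06). Ehym_DN103969_c0_g1 measured 47.4, 43.6 and 53.0 CPM against 84.9, 70.5 and 65.2 CPM, with a log2FC of 0.60 (SE 0.140, FDR 0.07). Neither pair of groups overlapped, and in both contigs hypoxia replicate 1 was the highest library. Summed, the pair reached 1.59 times its air level.

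The LBD37 contigs of the same species showed no such separation. Ehym_DN99316_c0_g1 measured 9.53, 8.82 and 10.7 CPM in air and 16.6, 9.41 and 7.61 CPM in hypoxia, so that the spread of the hypoxia libraries covered the air values (log2FC 0.13, 95% interval -0.43 to 0.69, FDR 0.89). Ehym_DN99316_c0_g2 was near 1 CPM throughout, from 0.790 to 1.49 CPM in air and from 0.469 to 2.14 CPM in hypoxia. Its E-value of 2.86e-11 was the weakest of any member for which one was listed. In both contigs hypoxia replicate 1 stood above the other hypoxia libraries, and without it the log2FC of Ehym_DN99316_c0_g1 turned to -0.17.

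Ratios taken within a library compare the copies with the library's depth removed. The LBD38 pair stood at 12.3% to 12.97% of the LBD38 and LBD39 signal in air and at 23.0% to 30.3% in hypoxia, computed on CPM. The log2 ratio of the LBD38 pair to the LBD39 pair, computed on CPM + 1, was 1.19 higher in hypoxia. Conditions did not overlap (exact permutation p = 0.1, two-sided, the smallest that 3 against 3 libraries can give). Against the LBD37 pair the log2 ratio of the LBD38 pair was 1.73 higher, again without overlap and at the same p of 0.1 by the exact permutation test. Such a design cannot reach 0.05, so the unequal change of the copies is given by its size and by its separation in 3 of 3 libraries.

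HRA1 counterparts in *E. hyemale* had log2FC of 0.29 to 0.94, and none passed the threshold. Ehym_DN107722_c1_g1 measured 1.93, 1.35 and 1.28 CPM in air and 4.10, 3.46 and 3.85 CPM in hypoxia (log2FC 0.94, SE 0.221, FDR 0.073). Ehym_DN107722_c0_g1 measured 0.668, 0.264 and 0.897 CPM against 1.66, 1.77 and 1.88 CPM (log2FC 0.80, SE 0.213, FDR 0.11). Hypoxia libraries lay above air libraries in both, and the second corresponds to only 5.57 to 18.9 reads in air, below the read filter of 20. That contig is therefore listed only because of its hypoxia libraries, so its highest library had to be among them. The pseudocount shrinks such low values, and with 0.1 CPM in place of 1 CPM their log2FC were 1.29 and 1.52.

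The other HRA1 contigs came from a separate assembly cluster and moved less. Ehym_DN94523_c0_g3 measured 7.37, 6.29 and 6.89 CPM in air and 9.33, 8.41 and 10.6 CPM in hypoxia, without overlap but at a log2FC of 0.41 and an FDR of 0.38. Ehym_DN94523_c0_g1 overlapped between 13.2, 10.99 and 16.3 CPM in air and 17.9, 16.3 and 15.5 CPM in hypoxia (log2FC 0.29, FDR 0.55). Summed over its 4 contigs, HRA1 signal was 23.2, 18.9 and 25.3 CPM in air and 32.97, 29.9 and 31.8 CPM in hypoxia, or 1.41 times the air level.

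Across the 10 *E. hyemale* members 2 were called up and 0 down, where 0.673% of all 55254 features were called up and 0.0452% down. At the unadjusted p, 7 of 10 were higher and 0 lower, beside 6.71% and 5.99% of all features. Without Ehym_DN107722_c0_g1, which passed the read filter through hypoxia alone, 6 of 9 were higher. The same 7, and so 6 of 9 without that contig, had hypoxia libraries wholly above the air libraries, a pattern that 9.66% of all features showed upward and 9.38% downward. The median log2FC of the 10 members was 0.65, and that of all features was near 0. These 10 contigs fall into 6 Trinity components, so they are not 10 independent observations. Summed per component, DN98966_c0 gave a log2FC of 1.84 (FDR 5.2e-05 by limma) and DN103969_c0 a log2FC of 0.65 (FDR 0.034), and 1 component was called. The component DN107722_c0 gained 1 contig that is no member and reached 1.14 (FDR 0.037).

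**Figure D2:**
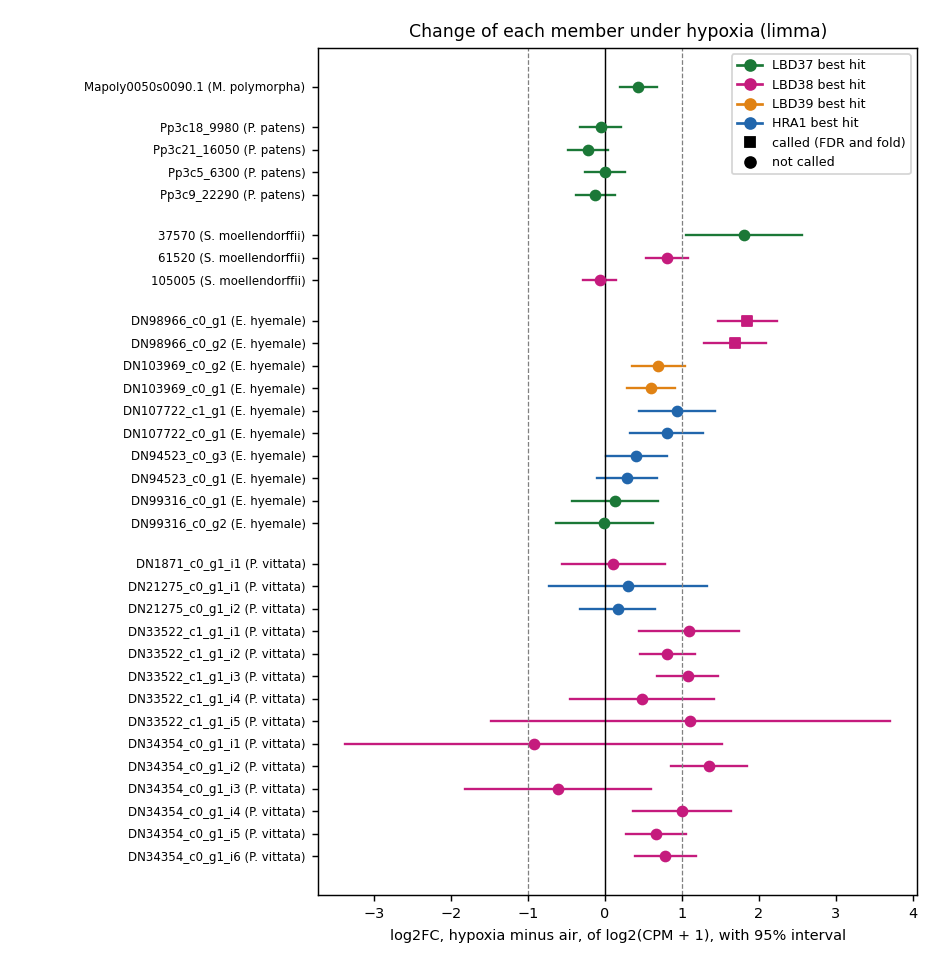
Log2FC (hypoxia minus air, of log2(CPM + 1)) of all 32 members with its 95% interval from limma, grouped by species and coloured by best hit. Squares mark the 2 called members, dashed lines a log2FC of 1 and -1. Intervals are widest in the *P. vittata* transcripts DN33522_c1_g1_i5 and DN34354_c0_g1_i1, which were erratic between replicates.

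*S. moellendorffii* held 3 members, and they did not move alike. The LBD37 hit 37570 measured 5.36 CPM in the unnumbered air library and 11.1 CPM in air replicate 3, against 32.7 and 26.9 CPM in hypoxia. That is 3.63 times the mean air level, with a log2FC of 1.81 (SE 0.302, 95% interval 1.05 to 2.56), which ranked 36 among 16892 features. Its FDR was 0.11 by limma, in a table where no feature reached the threshold (0% up and 0% down) and the smallest FDR was 0.081. Without air replicate 3 the log2FC was 2.27 and its FDR 0.0044, which counts as called, but the air group then holds 1 library and its spread is assumed to be that of the hypoxia group.

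The LBD38 hits of this plant differed from each other. The gene 61520 measured 23.3 and 27.7 CPM in air and 47.8 and 43.1 CPM in hypoxia (log2FC 0.81, SE 0.1101, FDR 0.10), without overlap. The gene 105005, in contrast, gave 93.0 and 82.1 CPM in air and 85.0 and 81.7 CPM in hypoxia, a log2FC of -0.07 with a 95% interval from -0.28 to 0.14. An increase of the size seen in 37570 or 61520 lies outside that interval. Within a library, the log2 ratio of 37570 to 105005 went from -3.34 (SD 0.780) in air to -1.46 (SD 0.154) in hypoxia, and that of 61520 to 105005 from -1.74 (SD 0.295) to -0.86 (SD 0.0626). Both ratios separated the conditions, though 2 against 2 libraries cannot give an exact permutation p below 0.333.

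At the unadjusted p, 2 of 3 *S. moellendorffii* members were higher and 0 lower, where 10.4% of all features were higher and 5.42% lower. The same 2 had hypoxia libraries wholly above the air libraries, beside 26% of all features upward and 23.5% downward. Summed over the 3 genes, the class II signal was 122 and 121 CPM in air and 166 and 152 CPM in hypoxia. The log2 difference of the sum was 0.38, smaller than that of 37570 or 61520 alone.

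*P. vittata* held 14 member transcripts from 4 Trinity genes, and the 2 well-covered LBD38 genes were both higher in hypoxia. Summed over its 5 transcripts, TRINITY_DN33522_c1_g1 measured 124 and 116 CPM in air and 245 and 216 CPM in hypoxia, 1.93 times the air mean. Summed over its 6 transcripts, TRINITY_DN34354_c0_g1 measured 114 and 107 CPM against 209 and 172 CPM, 1.73 times the air mean. Fitted as gene sums over the whole table, their log2FC were 0.94 (FDR 0.048 by limma) and 0.78 (FDR 0.07), both short of the threshold. The ratio of one gene to the other changed by 0.16 on the log2 scale.

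Among single transcripts the largest log2FC with a narrow interval was that of TRINITY_DN34354_c0_g1_i2, at 24.0 and 19.1 CPM in air and 62.4 and 50.7 CPM in hypoxia (log2FC 1.36, 95% interval 0.86 to 1.85, FDR 0.24). TRINITY_DN33522_c1_g1_i3 measured 39.3 and 36.4 CPM against 88.5 and 73.9 CPM (log2FC 1.08, FDR 0.24). TRINITY_DN33522_c1_g1_i1 measured 30.1 and 19.3 CPM against 58.2 and 47.4 CPM (log2FC 1.09, FDR 0.32). In all 3 the hypoxia libraries lay above the air libraries, yet no transcript of the whole table passed the threshold (0% up, 0% down) and the smallest FDR anywhere was 0.18.

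A further 4 transcripts of these genes were also without overlap. TRINITY_DN33522_c1_g1_i2 went from 41.9 and 47.4 CPM to 81.9 and 76.3 CPM (log2FC 0.81), and TRINITY_DN34354_c0_g1_i6 from 44.6 and 43.4 CPM to 84.4 and 69.5 CPM (log2FC 0.79). TRINITY_DN34354_c0_g1_i5 went from 29.98 and 26.9 CPM to 48.4 and 42.8 CPM (log2FC 0.66). TRINITY_DN34354_c0_g1_i4 was scarce, at 0.640 and 1.15 CPM in air and 2.70 and 2.83 CPM in hypoxia (log2FC 1.00). All had an FDR between 0.26 and 0.33.

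The remaining LBD38 transcripts of *P. vittata* were erratic between replicates. TRINITY_DN33522_c1_g1_i5 was estimated at practically 0 CPM in air replicate 1 and 6.92 CPM in air replicate 3, against 3.37 and 7.47 CPM in hypoxia. TRINITY_DN34354_c0_g1_i1 showed 6.08 and 0.0162 CPM in air and 0.000189 and 0.997 CPM in hypoxia, and passed the authors' read filter only through air. TRINITY_DN34354_c0_g1_i3 had 8.68 and 16.3 CPM in air and 11.5 and 4.77 CPM in hypoxia. TRINITY_DN33522_c1_g1_i4 had 12.3 and 5.63 CPM in air and 13.01 and 11.4 CPM in hypoxia. Reads that fit several transcripts of 1 gene are divided among them by estimation, and these 4 overlap between conditions while their gene sums do not. TRINITY_DN1871_c0_g1_i1, the only transcript of its gene, measured 0.973 and 0.553 CPM in air and 1.24 and 0.591 CPM in hypoxia. It passed the read filter only through hypoxia, at 21.0 reads.

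HRA1 transcripts of *P. vittata* overlapped between conditions. TRINITY_DN21275_c0_g1_i2 measured 17.1 and 13.9 CPM in air and 16.2 and 18.9 CPM in hypoxia (log2FC 0.17, 95% interval -0.32 to 0.66, FDR 0.81). TRINITY_DN21275_c0_g1_i1 measured 3.63 and 1.92 CPM against 5.02 and 2.41 CPM (log2FC 0.30, 95% interval -0.72 to 1.33). In both transcripts the intervals leave room for a change of the size seen in the *E. hyemale* HRA1 contigs DN94523_c0_g3 and DN94523_c0_g1. Their sum was 20.8 and 15.8 CPM in air and 21.2 and 21.3 CPM in hypoxia.

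Over the 14 *P. vittata* transcripts, 7 were higher at the unadjusted p and 0 lower, beside 6.03% and 4.23% of all 73725 features. The same 7 had hypoxia libraries above air libraries, which 21.6% of features showed upward and 20.9% downward. The median log2FC of the members was 0.72. All 7 belong to the same 2 genes.

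*M. polymorpha* had a single member, the LBD37 hit Mapoly0050s0090.1. It measured 297 and 291 CPM in air and 384 and 411 CPM in hypoxia, 1.35 times the air mean. Both hypoxia libraries lay above both air libraries, and the log2FC was 0.43 (SE 0.105, 95% interval 0.19 to 0.67, FDR 0.026 by limma). This gene was thus outside the threshold on the FDR as well as on the fold. It counts among the 15.4% of features higher at the unadjusted p (15.8% were lower) and among the 30.1% whose hypoxia libraries lay wholly above (30.4% below). With 1.47% of features called up and 1.35% called down, the change of Mapoly0050s0090.1 was modest for this species, at rank 1327 of 13572 by log2FC.

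*P. patens* had 4 LBD37 genes, and none was higher in hypoxia. Pp3c18_9980 measured 392 and 361 CPM in air and 374 and 351 CPM in hypoxia (log2FC -0.05, 95% interval -0.32 to 0.21). Pp3c21_16050 measured 428 and 387 CPM against 352 and 349 CPM, lower without overlap at a log2FC of -0.22 (95% interval -0.48 to 0.05, FDR 0.55). The log2 ratio of Pp3c21_16050 to Pp3c18_9980 changed by -0.16, from 0.11 (SD 0.0155) in air to -0.05 (SD 0.0543) in hypoxia.

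The other *P. patens* genes also lay close to their air level. Pp3c5_6300 measured 31.1 and 26.4 CPM in air and 28.2 and 29.1 CPM in hypoxia, with a fitted difference of 0.00033 on the log2 scale (95% interval -0.26 to 0.26). Pp3c9_22290 measured 20.9 and 19.0 CPM against 18.6 and 17.8 CPM, lower without overlap (log2FC -0.12, 95% interval -0.37 to 0.13, FDR 0.76). At the unadjusted p, 0 of 4 were higher (5.45% of all features) and 0 lower (5.46%). None was called, where 0.07% of all features were called up and 0.014% down. Hypoxia libraries lay below air libraries in 2 of 4 and above in 0, beside 20.9% and 20.5% of all 21442 features. A log2FC of 1 lies outside the interval of each of the 4 genes.

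**Figure D3:**
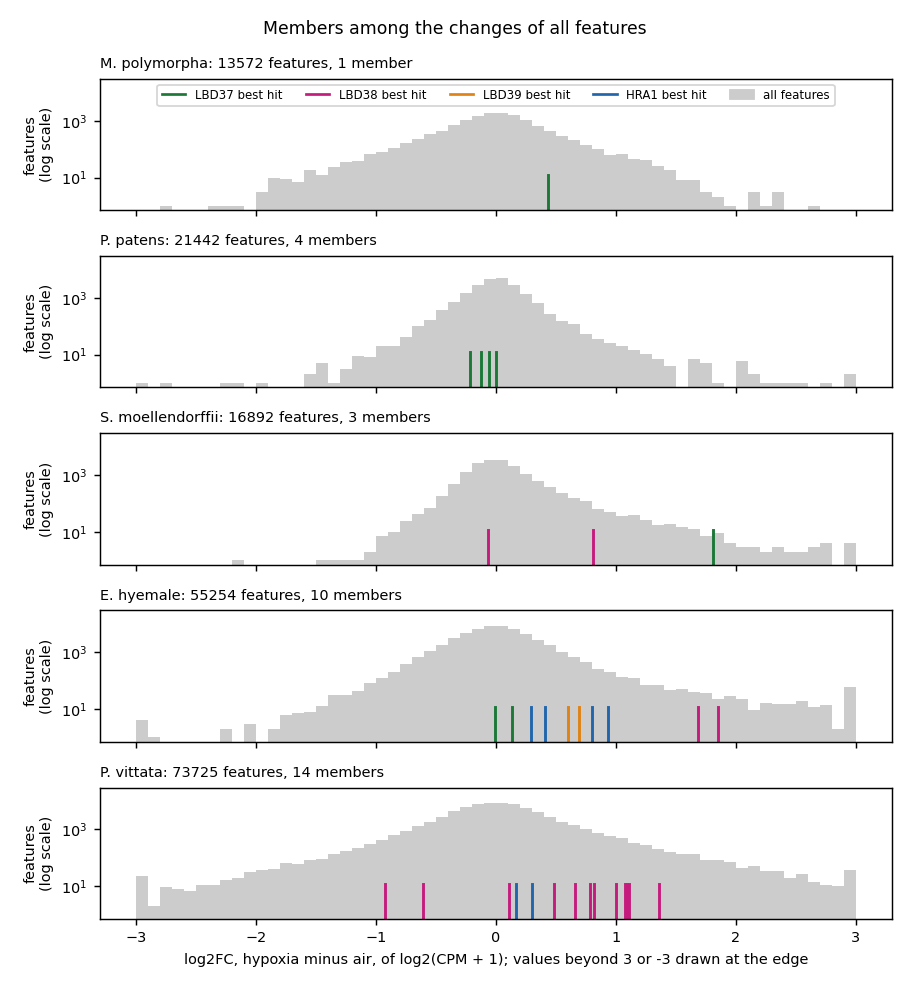
Log2FC (hypoxia minus air, of log2(CPM + 1)) of all features of each species as grey bars on a log count axis, with members as coloured lines. The 4 *P. patens* members sit at or below 0, whereas most members of *E. hyemale* and *P. vittata* sit to the right of it.

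Summing the LBD37, LBD38 and LBD39 hits of a species gives 1 class II value per library, free of how contigs were split. In *E. hyemale* it was 123, 115 and 133 CPM in air and 265, 207 and 198 CPM in hypoxia, a log2 difference of 0.84. In *P. vittata* it was 238 and 223 CPM against 456 and 389 CPM, a log2 difference of 0.86. *P. patens* showed the only decline, from 872 and 793 CPM to 773 and 747 CPM, at -0.13 on the log2 scale. Hypoxia and air sums did not overlap in any of the 5 species, a pattern common among all features as the shares above show. The sums add genes of unknown length, so they are compared within a species only.

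**Figure D4:**
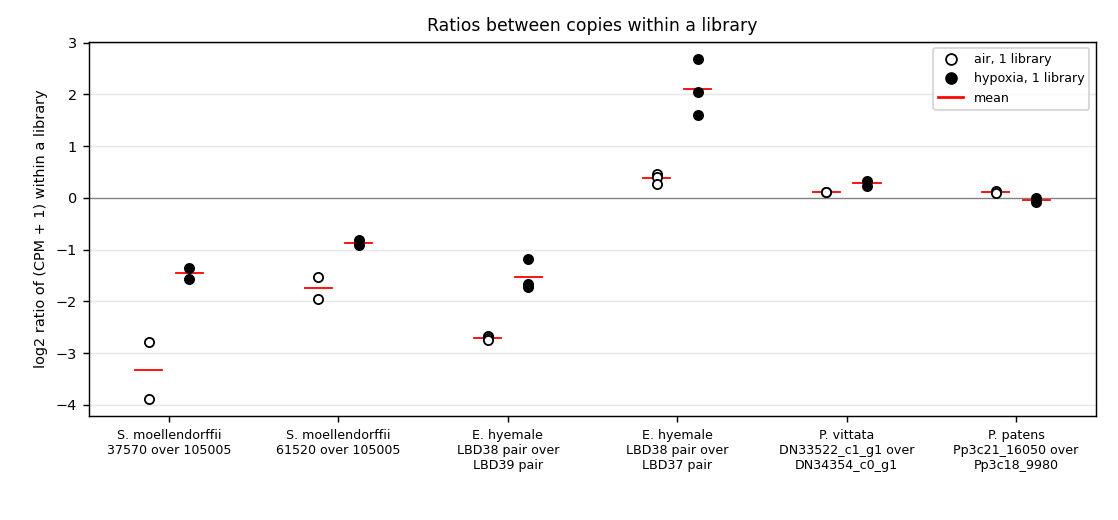
Log2 ratio of (CPM + 1) between copies within each library, open for air, filled for hypoxia, with red bars for the mean. The ratios to 105005 in *S. moellendorffii* and the ratios of the LBD38 pair in *E. hyemale* move up under hypoxia, while the gene pairs of *P. vittata* and *P. patens* shift by 0.16 and -0.16.

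The genes that these regulators are tied to in *A. thaliana* gave mixed values. Core hypoxia genes, among them alcohol dehydrogenase, pyruvate decarboxylase, the plant cysteine oxidases and the group VII ethylene response factors, had 13 of 54 features called up and 0 down in *E. hyemale*, or 11 of 49 without those that passed the read filter through hypoxia alone. Over all features of *E. hyemale* 0.673% were called up and 0.0452% down. At the unadjusted p 25 of 54 core features were higher and 2 lower, beside 6.71% and 5.99% of all features. Without those that passed the read filter through hypoxia alone, 20 of 49 were higher. The largest was the PCO2 hit Ehym_DN107561_c0_g2 (AT5G39890), an oxygen-sensing cysteine oxidase, at 0.726, 0.445 and 0.685 CPM in air and 22.8, 15.0 and 18.2 CPM in hypoxia (log2FC 3.59, FDR 2.2e-05). Its air levels correspond to 9.39 to 14.5 reads, so it is among those listed through hypoxia alone. With any 1 library left out the *E. hyemale* count was 10 to 14. No core feature was called in the other plants with all libraries. Over all features 1.47% were called up and 1.35% down in the liverwort, and 0.07% and 0.014% in the moss. In the lycophyte and fern tables no feature at all was called, so their counts of 0 were given in advance. At the unadjusted p the core features that were higher numbered 5 of 6 in the liverwort (15.4% of all features), 2 of 7 in the moss (5.45%), 4 of 10 in the lycophyte (10.4%) and 12 of 33 in the fern (6.03%). Without the fern features that passed the read filter through hypoxia alone, 9 of 30 were higher there. The 2 called LBD38 contigs and the 13 called core features were in the same species. That is the only species with 3 libraries per condition, and the lycophyte and fern tables held no call at all. The match therefore says little on a link between them.

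Nitrate genes were a list of transporters and assimilation enzymes with their NLP activators, targets or partners of LBD37, LBD38 and LBD39 in *A. thaliana*. They numbered 8 features in the liverwort, 12 in the moss, 3 in the lycophyte, 10 in the horsetail and 34 in the fern. Over all features 1.47% were called up and 1.35% down in the liverwort, and 0.07% and 0.014% in the moss. In the horsetail the shares were 0.673% and 0.0452%. No feature at all was called in the lycophyte and fern tables, so their counts of 0 were given in advance. Of the nitrate features 1 passed. It was the *P. patens* NLP7 hit Pp3c22_6370 (AT4G24020), a nitrate-sensing activator, which went from 0.171 CPM or less in air, at most 2.93 reads, to 19.2 and 34.04 CPM (FDR 0.0014). It passed the read filter through hypoxia alone, so that filter favoured a higher value in hypoxia. Its fitted fold depends on the pseudocount and is not given. Without air replicate 2 or 3 its FDR was 0.026 or 0.042, and it was then not called. The median log2FC of the nitrate list was -0.23 for the liverwort, -0.22 for the moss, 0.11 for the lycophyte, -0.13 for the horsetail and -0.04 for the fern. In *M. polymorpha* 4 of 8 were lower at the unadjusted p and 1 higher, beside 15.8% and 15.4% of all features. In *P. patens* 3 of 12 were lower and 1 higher, beside 5.46% and 5.45%. Without the moss feature that passed the read filter through hypoxia alone, 0 of 11 were higher. The lycophyte had 0 of 3 lower and 1 higher (5.42% and 10.4%). The horsetail had 1 of 10 lower and 0 higher (5.99% and 6.71%), and the fern 1 of 34 lower and 1 higher (4.23% and 6.03%).

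Anthocyanin and flavonoid genes are also repressed by these LBD proteins in *A. thaliana*. In *M. polymorpha* 5 of 52 features were called down, beside 1.35% of all features. None was called in either direction among 60 in the moss, 71 in the lycophyte, 8 in the horsetail and 16 in the fern. No feature at all was called in the lycophyte and fern tables, so their counts of 0 were given in advance. In the moss and the horsetail only 0.014% and 0.0452% of all features were called down. The difference between species was not tested, and the *M. polymorpha* count was 0 without either air replicate, 9 without hypoxia replicate 1 and 4, with 1 called up, without hypoxia replicate 2. The largest drop was that of Mapoly0142s0024.1, whose best hit is the flavonoid 3'-hydroxylase TT7 (AT5G07990), from 64.1 and 59.2 CPM to 25.7 and 21.3 CPM (log2FC -1.36, FDR 0.001). That hit alone accounts for 22 of the 52 features and 3 of the 5 calls, and it may stand for other cytochrome P450 genes. In *M. polymorpha* 20 of 52 were lower and 6 higher at the unadjusted p, beside 15.8% and 15.4% of all features. The horsetail had 5 of 8 higher (6.71% of all features) and the fern 3 of 16 (6.03%), with 0 lower in both. Without the horsetail feature that passed the read filter through hypoxia alone, 4 of 7 were higher there. Chalcone synthase (AT5G13930) was the best hit of 6 of the 8 horsetail features and 15 of the 16 fern features. The horsetail and fern counts thus rest mostly on 1 best hit.

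Relatives from the same gene families were counted in the same way. Class I LBD genes, which act in organ boundaries and root and leaf development in *A. thaliana*, had 0 called features in any species. Over all features 1.47% were called up and 1.35% down in the liverwort, and 0.07% and 0.014% in the moss. In the horsetail the shares were 0.673% and 0.0452%, and no feature was called in the lycophyte and fern tables. Counts of 0 class I features say little beside such shares. At the unadjusted p 2 of 6 were higher and 1 lower in the liverwort, 1 of 21 higher in the moss, 2 of 7 higher in the lycophyte, 2 of 20 higher and 1 lower in the horsetail and 1 of 11 higher in the fern. The shares of all features that were higher in the same order were 15.4%, 5.45%, 10.4%, 6.71% and 6.03%, so the moss and horsetail counts are near the background. Some class I features passed the read filter through hypoxia alone. Without them 2 of 5 were higher in the liverwort, 2 of 6 in the lycophyte, 1 of 19 in the horsetail and 1 of 10 in the fern. Other trihelix genes, the family of HRA1, had 3 called features. They were 2 in *E. hyemale* and 1 in *M. polymorpha*, where 0.673% and 1.47% of all features were called up. In *E. hyemale* 2 of 37 rose, both with the best hit AT1G21200, and the larger was Ehym_DN107514_c2_g1 at 6.25, 2.79 and 6.87 CPM in air and 109, 58.6 and 60.1 CPM in hypoxia (log2FC 3.62, FDR 0.00013). In *M. polymorpha* 1 of 28 rose, Mapoly0086s0081.1 (AT2G35640), from 74.7 and 75.4 CPM to 158 and 167 CPM (log2FC 1.104, FDR 0.00093, and no longer called without either air library). HRA1 itself is not on this list, and *M. polymorpha* had no HRA1 hit.

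Likeness of pattern was measured as the Euclidean distance between summed log2FC of best hits over the species that had them. For LBD38, with 0.19 for the lycophyte, 1.84 for the horsetail and 0.86 for the fern, the nearest of 3995 best hits were AT1G16300, a plastid glyceraldehyde-3-phosphate dehydrogenase, at 0.55, AT3G12150, an alpha/beta hydrolase, at 0.66, and AT5G15120, the cysteine oxidase PCO1, at 0.72. PCO1 hits gave 0.12, 2.55 and 0.74 in the same 3 species. For LBD37, over 4 species and 3509 best hits, the nearest were AT1G01500 at 0.44, AT1G64760 at 0.51 and AT1G08620 at 0.56. These are descriptions over 3 or 4 species, with the closest picked from all best hits compared.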

How the data were processed

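RNA libraries of 5 plants at 21% or 1% O2 were analysed. The authors trimmed reads, estimated abundances with kallisto against reference transcriptomes or Trinity assemblies, dropped loci with no sample above 20 reads, scaled libraries by TMM in edgeR and deposited log2 CPM per library. The build and tool versions are not given in the sources used here. The *E. hyemale* columns, deposited as log2 CPM with error text for values of 0 (unit "other"), were read with those entries as 0 and matched to identifiers by sorting. The deposited E-values (p-value-like scores of the best hit) served as annotation. Deposited fold changes and FDRs hold the authors' own comparison and were not used.

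The values are not counts: only 47.3% to 82.3% of low values were whole reads within 0.1 of a read, so no count model was run. Values were set back to CPM and fitted species by species as log2(CPM + 1) by limma (version 3.58.1, under R 4.3.3), with an intensity trend in the prior and Benjamini-Hochberg adjustment over the whole table. The fits were also run on simulated data drawn from limma's own prior variances, which cannot show that its assumptions hold here. Sums and percentages used CPM, log2 differences and log2 ratios used CPM + 1, and exact permutation tests were two-sided. Adjusted and unadjusted p-values measure the spread between pools of 3 plants in 1 experiment.

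Members and gene lists were chosen with earlier results of these data known. Named list genes were the called feature with the largest change in each list and species. Every member was described. Alternatives were the pseudocount, a CPM filter, the prior, scaling, thresholds, contig sums, the row order, the replicate block and leaving out each library. Replicate numbers did not pair libraries.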

Additional observations from a re-analysis of the deposited data

Results flagged for a closer look

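The summed LBD37, LBD38 and LBD39 hits moved one way in 4 species and the other way in *P. patens*: every hypoxia library lay above every air library in the liverwort, the lycophyte, the horsetail and the fern, and below in the moss. The difference of the log2 changes from that of *P. patens* was 0.5635 for *M. polymorpha*, 0.5140 for *S. moellendorffii*, 0.9708 for *E. hyemale* and 0.9960 for *P. vittata*. These differences between species were not tested. Libraries that do not overlap are common: among all features hypoxia lay wholly above air in 30.1% of the liverwort, 26% of the lycophyte, 9.66% of the horsetail and 21.6% of the fern, and wholly below in 20.9% of the moss. The *P. patens* decline itself was -0.13 on the log2 scale, and none of its 4 genes was lower at the unadjusted p.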

How the results depend on the processing

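The counts of called members stayed within 1.5 times under the alternatives in 143 cases and moved in 3. Apart from the called-up count of *E. hyemale*, which was 2, every main count was 0. Most of these cases therefore compare 0 with 0 and say little on stability. Leaving out air replicate 3 of *S. moellendorffii* gave 1 member called up (37570), against 0, and between 0 and 1 over all libraries left out. In *E. hyemale* the count was 2 with any 1 library left out, 1 with contigs summed per component (chosen after seeing the data) and 0 with rows in the deposited order, where identifiers and values are mismatched. Over the 16 settings with sorted rows the FDR of Ehym_DN98966_c0_g1 ranged from 0.0002 to 0.0023 and that of Ehym_DN98966_c0_g2 from 0.00053 to 0.0073.

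The sign turned for log2FC that were small or erratic. For Pp3c5_6300 it was -0.00016 with a pseudocount of 5 CPM, -0.014 with library totals and between -0.11 and 0.11 with 1 library left out. For Pp3c18_9980 leaving out 1 library gave -0.12 to 0.0065 and for 105005 -0.16 to 0.021. Ehym_DN99316_c0_g2 gave 0.012 with a pseudocount of 5 CPM, 0.11 summed per component and -0.31 to 0.23 with 1 library left out. In the deposited row order Ehym_DN94523_c0_g3 gave -0.57 and Ehym_DN99316_c0_g1 -0.10, and the latter gave -0.17 to 0.35 with 1 library left out. TRINITY_DN34354_c0_g1_i1 and TRINITY_DN34354_c0_g1_i3 gave 0.78 as part of their gene sum. With 1 library left out the ranges were -2.32 to 0.48 for TRINITY_DN34354_c0_g1_i1, -0.38 to 2.61 for TRINITY_DN33522_c1_g1_i5, -0.020 to 0.99 for TRINITY_DN33522_c1_g1_i4, -0.14 to 0.36 for TRINITY_DN1871_c0_g1_i1 and -0.11 to 0.71 for TRINITY_DN21275_c0_g1_i1. Apart from the row order, where the mismatch is the alternative itself, the cause was not tested.

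Same-numbered libraries did not deviate together (correlations of 0.031 in *M. polymorpha*, 0.061 in *P. vittata* and -0.28 to -0.075 in *E. hyemale*). With the replicate block the *E. hyemale* members called up remained 2 in number, at FDR 0.0006 and 0.0035, and the counts in *M. polymorpha* and *P. vittata* remained 0. The block moved the calls over all features from 372 to 323 up in *E. hyemale*, and from 200 to 222 in *M. polymorpha*. The *P. patens* labels share only 1 number between conditions. The *S. moellendorffii* labels share 2, but 1 air column carries a number that no label has, which leaves 1. No paired analysis was possible in these plants because a block needs at least 2 shared numbers.

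Counts over all features moved more than those over members. Features called up in *M. polymorpha* were 200, but 95 with a pseudocount of 5 CPM, and 5 to 271 with 1 library left out. The 15 in *P. patens* became 0 without the prior's trend and 0 to 8 with 1 library left out. In *S. moellendorffii* 164 were called up without air replicate 3, and in *P. vittata* 6 after gene sums. In *E. hyemale* 372 became 245 per component, 559 at an FDR of 0.05 and 210 to 454 with 1 library left out. With 2 libraries per condition, FDRs of 0.10 to 0.33 in *S. moellendorffii* and *P. vittata* do not show that members were unchanged.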
